A study of Mus musculus with 12 samples.

Results

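Open chromatin at Foxp3 was examined in 12 lists of ATAC-seq peaks, one for each library of sorted mouse CD4+ T cells. ATAC-seq uses the Tn5 transposase to cut accessible DNA, so that a peak marks a stretch cut more often than its surroundings. Every peak on chromosome X between 7.12 and 7.2 Mb of the NCBIM37 build was taken, a window of 80 kb in which Foxp3 spans about 7.15 to 7.17 Mb. The window held 47 of the 275880 peaks in all lists. Overlapping or touching peaks were merged into 9 elements, out of 40457 merged regions in the genome, and were numbered 1 to 9 along the chromosome. Of these, 6 had a peak in at least 2 libraries, out of 32787 such regions, and 3 had a peak in a single library.

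Foxp3 encodes the transcription factor that defines regulatory T cells (Treg), the CD4+ T cells that restrain immune responses. The gene is X-linked, and its transcription in Treg depends on its promoter together with conserved noncoding sequences before and within the gene. These sequences are known to act in different ways: some help to start transcription in the thymus or in the periphery, and an intronic one, whose CpG sites are demethylated in stable Treg, keeps the gene on through cell division. In the mouse gene order Foxp3 lies between Ppp1r3f, which encodes a regulatory subunit of a protein phosphatase, and Ccdc22, which encodes a component of an endosomal sorting complex. Cacna1f, a calcium channel gene, and Syp, the synaptophysin gene, follow. The order was taken from a gene table of another build (GRCm38.p6), where Foxp3 has gene ID 20371. No gene model of NCBIM37 was used here, so the elements are given by position and none is assigned to the promoter, to a conserved sequence or to a neighbouring gene.

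The cells were CD4+ T cells of the spleen from Foxp3-IRES-EGFP reporter mice, in which the Foxp3 locus itself drives EGFP. GFP-positive cells are the Treg libraries and GFP-negative cells the conventional T cell (Tconv) libraries. The animals were wild type (WT) or carried a deletion of an enhancer 70 kb from Lrrc32 (KO), and both genotypes had the reporter. Lrrc32 encodes GARP, a Treg surface protein that binds latent TGF-beta. Each of the 4 groups (WT Treg, KO Treg, WT Tconv and KO Tconv) had 3 libraries of 100000 sorted cells. The age and sex of the animals, and whether each library came from its own animal, are not given in the labels. The p-values therefore refer to the spread among libraries, which may be partly technical. Because the sort used a reporter at Foxp3, a Treg and Tconv difference at this locus is not independent of how the cells were chosen. The markers of the cell types could not be checked without a gene model of the build.

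Read depth is unknown, and the number of peaks in a list was the only measure of a library's yield. In 11 libraries the lists held 21269 to 27605 peaks. KO Treg replicate 2 held 5262. The first 50 Mb of X, which include Foxp3, held 0.456% of its peaks against 0.701% to 0.780% in the other 11 libraries, while the whole of X held 3.76%, the highest share of the 12. Every KO library had a larger share of its peaks on X, 3.13% to 3.76%, than every WT library, 2.78% to 3.10% (exact permutation p = 0.005, the smallest possible within cell type). In the first 50 Mb of X the KO minus WT difference in this share was −0.0424 percentage points, with an exact permutation p of 0.6. The part of these shares in the results at Foxp3 was not tested. No list held a peak with a −log10 p below 5, so signal slightly weaker than this is read as no peak.

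By mean percentile the strongest elements of the locus were one that every library had and one that was found in Treg libraries alone. Element 5, at chrX:7151191-7152312, had a peak in all 12 libraries. Element 6, at chrX:7160868-7161891 and 8.56 kb further along, had a peak in 5 of 6 Treg libraries and in 0 of 6 Tconv libraries. The remaining 4 recurrent elements lay on both sides of this pair, and their peaks were mostly in the lower part of each list. Elements 2 and 3 lay about 7.01 to 8.20 kb before element 5, centre to centre. Elements 8 and 9 lay 30.9 and 43.7 kb after it.

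**Figure D1:**
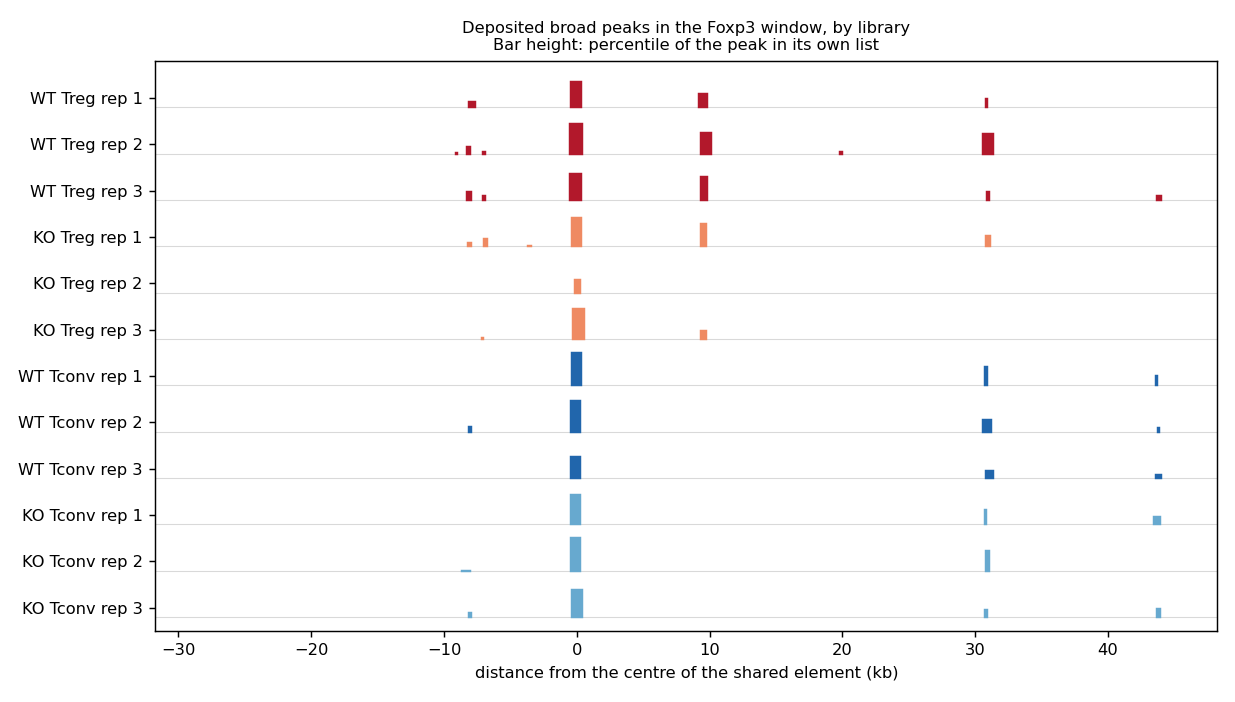
Peaks of each of the 12 libraries (rows) in the Foxp3 window, plotted by distance in kb from the centre of element 5, with bar height giving the percentile of the peak's −log10 p in its own list. Element 5, at 0 kb, is present in every row, and element 6, 9.63 kb to the right of it, only in Treg rows.

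Peak strength is described by the fold over background and the −log10 p of the authors' peak caller, and by the percentile of that −log10 p in the library's own list, where 0 is the weakest peak and 100 the strongest. These are values of a peak in its own list. They depend on the depth of a library and were not tested between groups. Percentiles were only checked for single libraries that stand apart from the rest. Tests between groups used the presence of a peak, the base pairs covered and the number of elements with a peak. Peak width and the share of peaks on X were also tested.

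Element 6 was present in all 3 WT Treg libraries and in KO Treg replicates 1 and 3. In WT Treg its fold over background was 4.76, 5.34 and 6.11 in replicates 1, 2 and 3, and in KO Treg it was 6.23 in replicate 1 and 4.50 in replicate 3. The KO values thus enclosed the WT values, one above all 3 and one below. The −log10 p was 9.20, 12.7 and 13.2 in the WT libraries and 13.7 and 8.09 in the KO libraries, in the same order. The percentiles were 36.1, 54.3 and 59.6 in WT Treg, and 59.99 and 22.6 in KO Treg, with a mean of 46.5 ± 16.5 (SD, n = 5). The highest and the lowest of the 5 peaks were therefore both in KO Treg libraries.

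The 5 peaks of element 6 shared a core of 426 bp, chrX:7161040-7161465, which was the whole peak of KO Treg replicate 3. The WT peaks were 678, 858 and 556 bp wide in replicates 1, 2 and 3, and the KO peaks were 473 bp in replicate 1 and 426 bp in replicate 3. All 3 WT peaks were wider than both KO peaks, with means of 697 ± 152 bp (SD, n = 3) and 449.5 ± 33.2 bp (SD, n = 2). The difference of 248 bp gave p = 0.2 in a two-sided exact permutation test with 10 labelings. With so few libraries that test could not pass 0.05.

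The name Treg-enriched was given to a region present in 5 or 6 more of the 6 Treg than of the 6 Tconv libraries, and Tconv-enriched to the reverse. Element 6 was the 1 Treg-enriched element of the 6 tested at the locus. In the genome 1050 of 32787 regions were Treg-enriched, or 3.20%, and 1163 were Tconv-enriched, or 3.55%. No element of the locus was Tconv-enriched. Fisher's exact test of presence gave p = 0.0152 for element 6, with an adjusted p of 0.224 after Benjamini-Hochberg adjustment over all 32787 regions. By that test 0 regions, 0% of those tested, passed an adjusted p of 0.05 in either direction. The smallest adjusted p was 0.123, and 2213 regions had an unadjusted p under 0.05.

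Without KO Treg replicate 2, element 6 had a peak in 5 of 5 Treg libraries and 0 of 6 Tconv libraries. Its Fisher's exact p was then 0.00216, the smallest that 5 libraries against 6 allow, with an adjusted p of 0.0451 over 32752 regions. The library left out was the only Treg library without a peak in element 6, so this split was fixed by the choice. At that setting 1035 regions (3.16%) passed with more Treg libraries and 537 (1.64%) with more Tconv libraries. Element 6 was the one element of the locus among them. With any other single library left out no region passed, and element 6 had an adjusted p of 0.184 to 0.208.

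Element 6 had no peak in KO Treg replicate 2, and neither did most regions of like strength. There were 2282 regions with a peak in all 5 other Treg libraries and a mean percentile within 5 of that of element 6. Of these, 89 (3.90%) had a peak in KO Treg replicate 2. Among the 180 of them with no Tconv peak, 6 (3.33%) did. The peaks of element 6 ranked between 9250 and 19655 from the top of their own lists, while the whole list of KO Treg replicate 2 held 5262 peaks. Such ranks do not settle presence there: element 5 ranked 5354 to 8336 in the other 5 Treg lists and had a peak in that library, at rank 3497. The part of the short list in the missing peak of element 6 was not tested.

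Element 5 had a peak in every library of all 4 groups. Its fold over background was 5.30, 5.57 and 5.66 in WT Treg replicates 1, 2 and 3, and 5.72, 4.82 and 5.93 in the KO Treg replicates. In Tconv it was 6.95, 6.05 and 5.62 in the WT replicates and 5.93, 6.34 and 5.53 in the KO replicates. The Treg and Tconv ranges overlapped, as did those of WT and KO. Its percentile was 71.1 ± 14.4 over all libraries (SD, n = 12), with a mean of 66.8 ± 16.9 in Treg and 75.3 ± 11.2 in Tconv (SD, n = 6 each). The lowest value was 33.6 in KO Treg replicate 2, whose list was the shortest, and the next lowest was 55.1 in WT Tconv replicate 3.

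The peaks of element 5 were 431 to 947 bp wide and shared a core of 431 bp, chrX:7151554-7151984, which was the whole peak of KO Treg replicate 2. The WT Treg peaks had a mean width of 862 ± 76.7 bp and the KO Treg peaks one of 694 ± 245 bp (SD, n = 3 each), a difference of 168 bp with p = 0.4 in a two-sided exact permutation test. Without KO Treg replicate 2 the difference was 36.5 bp (exact permutation p = 0.8). The Tconv peaks, 694 to 804 bp wide, varied less, with a mean of 771.5 ± 40.2 bp (SD, n = 6). Regions with a peak in all 12 libraries numbered 4455, or 13.6% of those tested. Element 5 was among the weaker of them: their median of mean percentiles was 84.6, and 19.3% of them had a lower mean percentile.

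**Figure D2:**
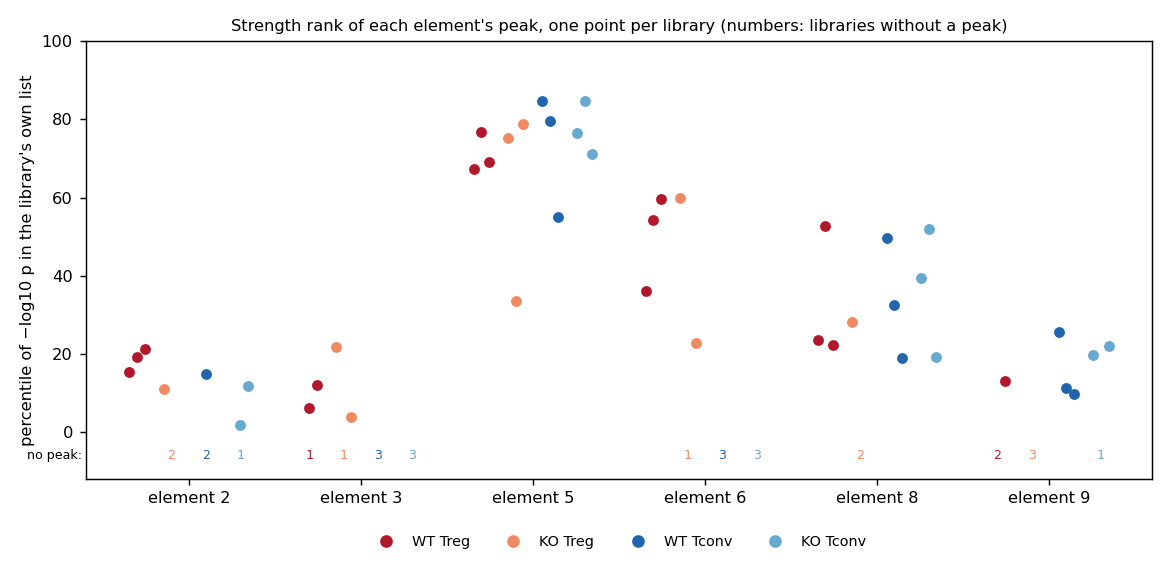
Percentile of −log10 p in the library's own list (vertical axis) for the 6 elements with a peak in at least 2 libraries, 1 point per library, coloured by group, with the number of libraries without a peak printed below. Element 5 lies highest, at 33.6 to 84.8, element 6 has points in Treg colours only, and elements 2, 3 and 9 lie below 26.

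Both strong elements could be compared within the 5 Treg libraries that had them, since the peaks of one list share its depth. In −log10 p and in percentile, element 5 was the stronger in all 5. In fold over background it was the stronger in 3. The fold of element 6 was 0.898, 0.959 and 1.08 times that of element 5 in WT Treg replicates 1, 2 and 3. In KO Treg this ratio was 1.09 in replicate 1 and 0.758 in replicate 3. The ratios of the KO libraries again lay above and below all 3 WT ratios.

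Raising the peak threshold shows how far each element's peaks lay above the detection limit. When only peaks with a −log10 p of at least 8 were accepted, element 6 was still present in 5 Treg libraries. No Tconv library had it at any threshold, which follows from the full lists. At a minimum of 9 it was present in 4 Treg libraries, at 10 to 12 in 3, at 13 in 2, and at 14 in none. Element 5 at a minimum of 15 was present in 5 Treg and 5 Tconv libraries. Element 8 went from 4 Treg and 6 Tconv libraries at a minimum of 7 to 2 and 4 at a minimum of 8. Element 9 went from 1 Treg and 5 Tconv libraries at a minimum of 6 to 0 and 3 at a minimum of 7.

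**Figure D3:**
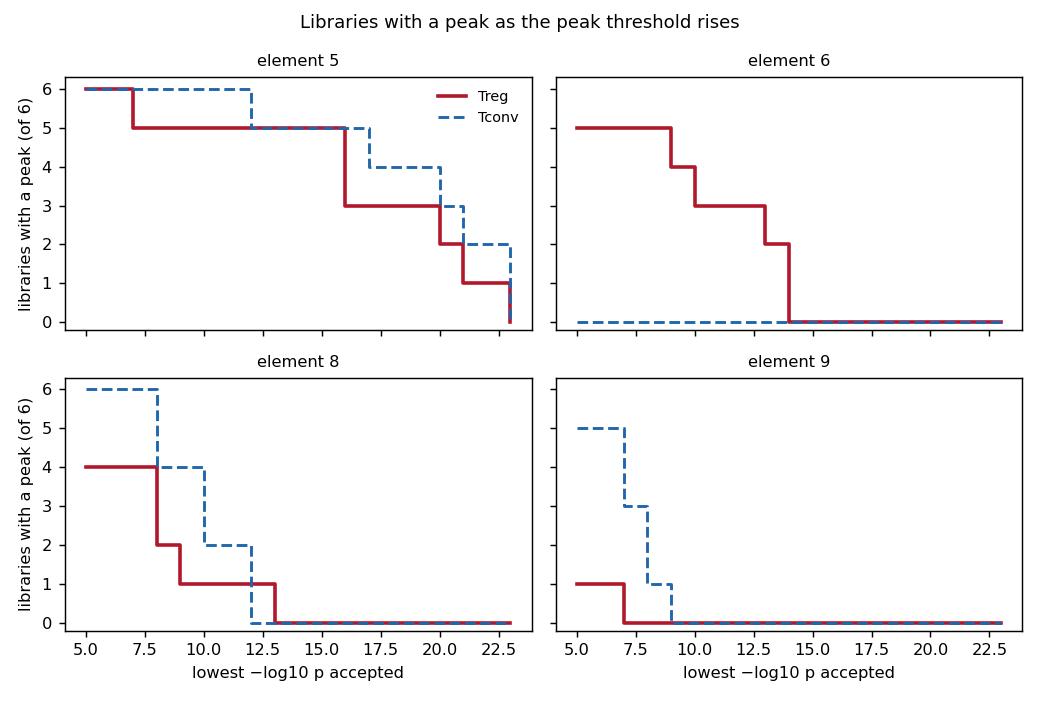
Number of Treg (solid) and Tconv (dashed) libraries, out of 6 each, with a peak in elements 5, 6, 8 and 9 (vertical axes) as the lowest −log10 p accepted rises (horizontal axes). The Treg line of element 6 falls from 5 to 0 between 8 and 14.

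Element 8, at chrX:7182262-7183084, was the most widespread after element 5. It had a peak in all 6 Tconv libraries and in 4 Treg libraries, namely the 3 WT Treg libraries and KO Treg replicate 1. Its percentile was 49.7, 32.5 and 18.9 in WT Tconv replicates 1, 2 and 3 and 39.3, 51.9 and 19.2 in the KO Tconv replicates. In WT Treg it was 23.4, 52.6 and 22.3, and in KO Treg replicate 1 it was 28.0. The groups overlapped throughout, and Fisher's exact test of presence in Treg against Tconv gave p = 0.455, with an adjusted p of 1. The 10 peaks were 150 to 798 bp wide, and they shared a core of only 56 bp.

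Element 9, at chrX:7195125-7195762, had the opposite lean to element 6. It was present in all 3 WT Tconv libraries, in KO Tconv replicates 1 and 3, and in 1 Treg library, WT Treg replicate 3. Its percentiles were low, at 25.5, 11.2 and 9.58 in the WT Tconv replicates, 19.7 and 22.0 in the KO Tconv replicates, and 13.1 in WT Treg replicate 3. Fisher's exact test gave p = 0.0801, with an adjusted p of 0.634. A difference of 4 libraries left it short of the Tconv-enriched call. The 6 peaks had no base pair common to all of them: the peak of WT Tconv replicate 1 ended before that of WT Tconv replicate 2 began.

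Elements 1, 2 and 3 lay close together at chrX:7142594-7144968, within 2375 bp. At least one of them had a peak in 5 Treg libraries, again all but KO Treg replicate 2, and in 3 Tconv libraries. Element 2, at chrX:7143013-7144096, was present in all 3 WT Treg libraries and KO Treg replicate 1, and in WT Tconv replicate 2 and KO Tconv replicates 2 and 3. Its percentile was 15.3, 19.2 and 21.3 in the WT Treg replicates and 11.0 in KO Treg replicate 1. In Tconv it was 14.9 in WT replicate 2, 1.64 in KO replicate 2 and 11.7 in KO replicate 3. All 7 peaks overlapped a core of 135 bp.

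Element 3, at chrX:7144509-7144968, began 412 bp after element 2 ended and was present in Treg libraries alone. It had a peak in WT Treg replicates 2 and 3, with percentiles of 6.20 and 12.01, and in KO Treg replicates 1 and 3, with percentiles of 21.6 and 3.77. No Tconv library had it. Fisher's exact test gave p = 0.0606, with an adjusted p of 0.549. The peak of KO Treg replicate 3 ended before that of KO Treg replicate 1 began, so the 4 peaks had no common core. All 4 had percentiles of 21.6 or less, and weaker cutting in Tconv just under the limit of detection cannot be told apart from none.

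With KO Treg replicate 2 left out, a difference of at least 4 libraries was taken as a call. Elements 6 and 3 were then Treg-enriched, as were 2034 regions in the genome (6.20%), and element 9 was Tconv-enriched, as were 2097 regions (6.40%). The adjusted p of Fisher's exact test was 0.155 for element 3 and 0.477 for element 9 at that setting.

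The 3 elements seen in a single library were weak and narrow. Element 1, 150 bp at chrX:7142594-7142743, and element 7, 193 bp at chrX:7171498-7171690, were found in WT Treg replicate 2, the library with the longest list. Their percentiles there were 3.92 and 7.27. Element 4, 264 bp at chrX:7148006-7148269, was found in KO Treg replicate 1 at a percentile of 2.85. All 3 were in Treg libraries, and none was tested.

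**Figure D4:**
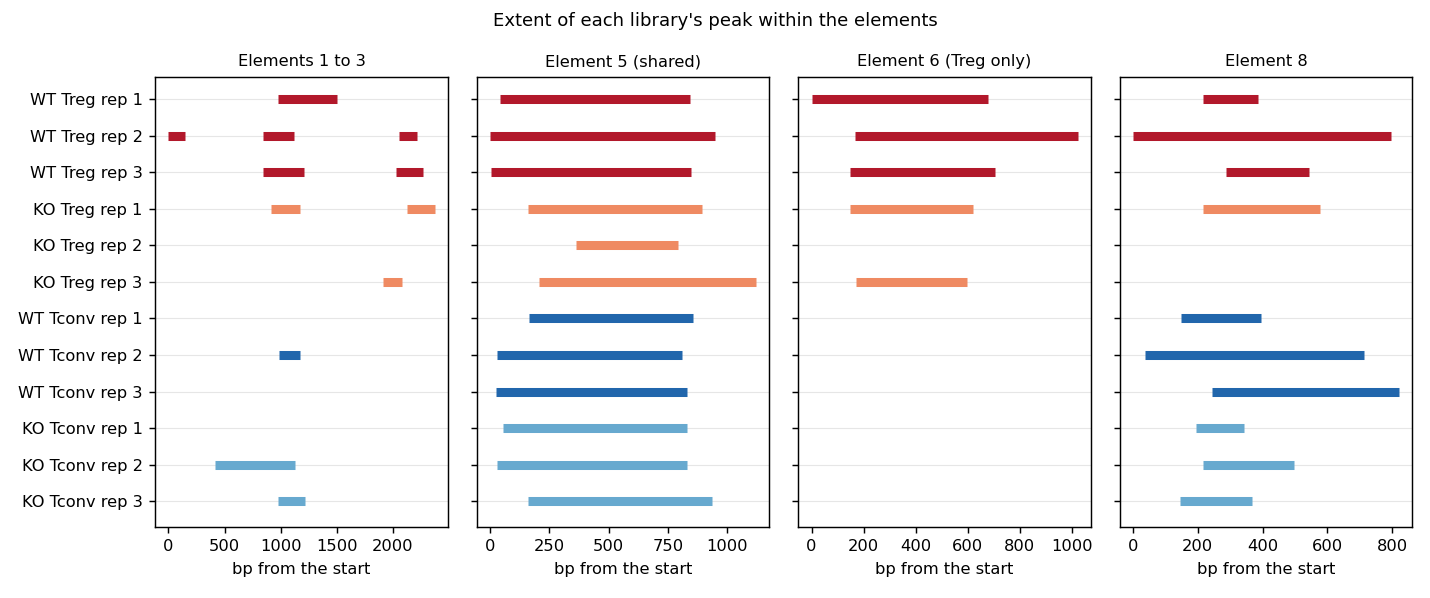
Extent of each library's peak (bars, 1 row per library) within elements 1 to 3, 5, 6 and 8, in bp from the start of the element or group. The peaks of element 6 in KO Treg replicates 1 and 3, 473 and 426 bp, are narrower than the 3 WT Treg peaks of 556 to 858 bp, and those of element 5 share one core in all 12 libraries.

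The part of the window covered by peaks was 2173, 3385 and 2609 bp in WT Treg replicates 1, 2 and 3, and 2340, 431 and 1511 bp in the KO Treg replicates. It was 1100, 1785 and 1841 bp in WT Tconv and 1492, 1791 and 1515 bp in KO Tconv. Each WT Treg library exceeded every Tconv library, while of the KO Treg libraries 1 was above all Tconv libraries, 1 below all of them and 1 within their range. The means were 2075 ± 1010 bp in Treg and 1587 ± 282 bp in Tconv (SD, n = 6 each). Permutation of the cell type labels within genotype gave an exact two-sided p of 0.25 for the difference of 487.5 bp (0.417 after Benjamini-Hochberg adjustment over 5 contrasts). Without KO Treg replicate 2, the library with the lowest coverage, the difference was 816 bp, with an exact permutation p of 0.015, not adjusted. Treg then had fewer KO than WT libraries, so genotype also enters this difference of plain means. With any other single library left out the exact permutation p was 0.2 to 0.57.

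Within WT, Treg had 1147 bp more covered than Tconv, with an exact permutation p of 0.1, the smallest that 3 libraries against 3 allow. Within KO the Treg minus Tconv difference was −172 bp (exact permutation p = 0.8). Its sign rested on KO Treg replicate 2, without which it was 326 bp (exact permutation p = 0.6). Treg libraries had a peak in 4, 6 and 7 elements (WT) and in 1, 3 and 6 elements (KO), against 3 or 4 in every Tconv library. The mean number was 4.5 ± 2.26 in Treg and 3.33 ± 0.516 in Tconv (SD, n = 6 each), a difference of 1.17 with an exact permutation p of 0.305. It was 1.87 without KO Treg replicate 2 (exact permutation p = 0.05) and 0.667 without WT Treg replicate 2 (exact permutation p = 0.555).

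By the presence of peaks, no element was called lost or gained with the Lrrc32 enhancer deletion. A region counted as lost in KO when all 3 WT libraries and no KO library of a cell type had a peak, and as gained in the opposite case. Of the 6 elements 0 were lost and 0 gained in Treg, where 0.973% of regions were lost and 0.0305% gained. A gain in Treg needed a peak in KO Treg replicate 2, whose list held 5262 peaks, which limits how many regions could be called gained. The shares lost and gained in Treg therefore cannot be set against each other. In Tconv 0 of the 6 elements were lost and 0 gained, against 0.189% and 0.793% of regions. Elements 2, 6 and 8 were present in every WT Treg library and in 1 or 2 KO Treg libraries, and each was missing from KO Treg replicate 2. The call depended on KO Treg replicate 1, without which elements 2 and 8 counted as lost in KO Treg. The KO Treg libraries then left were replicate 3 and the short list of replicate 2. How many regions of the genome counted as lost at that setting was not worked out. The call also depended on the overlap asked for: where a peak had to cover 50% of an element, element 6 counted as lost. Both ends of element 6 were set by WT Treg peaks, so this bar was itself drawn from them. The share of all regions lost at this setting was not worked out either. Fisher's exact test of presence in KO against WT libraries gave an adjusted p of 1 for the 6 elements tested, as for all 32787 regions.

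Coverage of the window was lower in KO Treg than in WT Treg, with a difference of −1295 bp and an exact permutation p of 0.2. The groups overlapped, since KO Treg replicate 1 exceeded WT Treg replicate 1. Without KO Treg replicate 2 the difference was −797 bp (exact permutation p = 0.3). In Tconv the KO minus WT difference was 24 bp (exact permutation p = 0.9). The difference between these 2 genotype differences, −1319 bp, had an exact permutation p of 0.145, and without KO Treg replicate 2 it was −821 bp (exact permutation p = 0.265). Over both cell types, KO libraries had a mean of 1513 ± 622 bp covered and WT libraries one of 2149 ± 783 bp (SD, n = 6 each). Permuting genotype within cell type gave an exact p of 0.165 for this difference of −635.5 bp, and without KO Treg replicate 2 it was −419 bp (exact permutation p = 0.21). The latter is a difference of plain means with fewer Treg than Tconv libraries left in KO, so cell type also enters it. This comparison over both cell types was added after the values were seen. A p above 0.05 does not show that the genotypes were alike here.

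Element 6 was set against the other Treg-enriched regions, using values that describe and do not test. By mean percentile it ranked 295 of 1050, where the median was 36.1 and the range 7.20 to 89.6. Its width of 1024 bp compares with a median of 692 bp. Its pattern of presence over the 12 libraries was that of 994 regions, or 3.03% of those tested. The pattern of element 8 was found in 165 regions, that of element 3 in 126, that of element 9 in 4 and that of element 2 in 2.

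**Figure D5:**
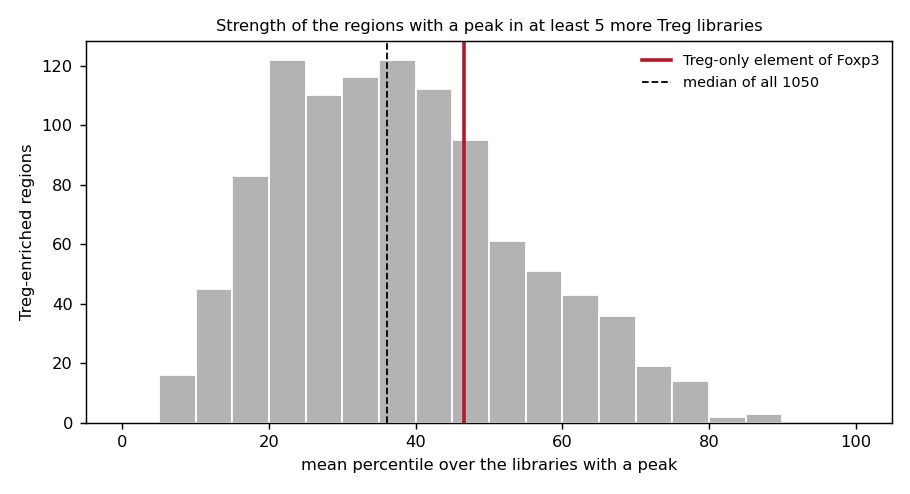
Mean percentile of −log10 p (horizontal axis) of the 1050 Treg-enriched regions of the genome, as the number of regions per bin (vertical axis), with element 6 as a solid line at 46.5 and the median of all as a dashed line at 36.1. Element 6 lies above the median and inside the bulk of the distribution.

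The 3 regions most like element 6 had a peak in the same 5 libraries and the closest percentiles. They were chr4:10867784-10868464, chr7:105728635-105729408 and chr15:66367530-66368383. Their percentiles differed from those of element 6 by 4.998, 5.95 and 6.003 on average over these 5 libraries. Their own mean percentiles were 47.0 ± 21.1, 48.7 ± 13.0 and 43.1 ± 12.4 (SD, n = 5 each), against 46.5 for element 6.

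On X as a whole, 9 of 1017 tested regions were Treg-enriched (0.885%) and 24 were Tconv-enriched (2.36%). Element 6 was the second strongest of the 9 by mean percentile. It was also the first of them along the chromosome, and the nearest other one, chrX:17091117-17091544, lay 9.93 Mb further on.

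The window of 80 kb before the one examined held no peak in any library, and the nearest region on that side, chrX:6999934-7000368, lay 142 kb before element 1. The 80 kb after it held 8 elements, the first at chrX:7215652-7215952 in 1 library. Of these, 5 were in at least 2 libraries and none was Treg-enriched or Tconv-enriched. One of them, chrX:7225674-7226574, had a peak in all 12 libraries, as element 5 did. Peaks covered 1335 ± 682 bp of that window in Treg and 1462 ± 185 bp in Tconv (SD, n = 6 each), a difference of −127 bp with an exact permutation p of 0.655.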

How the data were processed

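The 12 deposited lists of broad peaks, 1 per library, give for each peak the authors' fold ratio over background, −log10 p and −log10 q. Per the submitters' processing notes the build was NCBIM37 and the tools were MACS2, Bowtie2, Trim Galore 0.4.4, DESeq2 and DiffBind, in no stated order. The sources used here do not say what control, read filter or shift of cut sites was applied. The lists hold no counts, so no count test was run and depth is unknown. Groups came from the sample titles. The peak names carry sample numbers in a different order from the deposited lists, and which order is original is unknown.

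Overlapping or touching peaks of all libraries were merged, and regions found in at least 2 libraries were tested. Presence meant an overlap of at least 1 bp, compared by two-sided Fisher's exact tests with Benjamini-Hochberg adjustment. Values per library were compared by exact permutation tests over every labeling. Differences over both genotypes or both cell types were of plain group means. With a library left out, the groups compared then hold unequal shares of the other factor. Every recurrent element of the window is described. The window, rules and lists were chosen with earlier results of these data known. Coordinates are 1-based. The alternatives were equal numbers of top peaks, a minimum −log10 q of 5, 50% cover of an element, merging over gaps of 200 bp, a window from 7.14 to 7.18 Mb, other call thresholds, a replicate block, and each library left out. Further values without KO Treg replicate 2, and KO against WT over both cell types, were added after seeing the data. The scripts were tested on simulated presence data. Marker and pathway gene lists and peak sequences need a genome or annotation of NCBIM37 and are not analysed here. The tools were Python 3.11.15, scipy 1.17.1, pandas 2.3.3, numpy 2.4.6 and matplotlib 3.10.9.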

Additional observations from a re-analysis of the deposited data

Results flagged for a closer look

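The percentile of element 5 in KO Treg replicate 2, 33.6, lay far below those of the other 5 Treg libraries, which were 67.2 to 78.9. Its distance to the nearest of them was 0.741 of the whole Treg range, above the limit of Dixon's test for 6 samples. That library also had the fewest peaks, 5262, and a percentile is relative to the length of its list. Counted from the top of the list, the peak of element 5 ranked 3497 there, higher than in the other 5 Treg libraries (5354 to 8336). The part of the low yield in this value was not tested. Of 12 sets of values examined in this way 1 stood apart, and chance marks about 1 in 20.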

How the results depend on the processing

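Of 158 alternatives tried for 10 results, 125 left the result on the same side, and the others were as follows. With equal numbers of peaks per library, set by the 5262 of KO Treg replicate 2, element 6 had no peak in any library, since its peaks ranked below that number. There were then 0 Treg-enriched elements, and the Treg minus Tconv difference was −307 bp and −0.333 elements. The share of all regions called with equal numbers of peaks was not worked out. At that setting KO minus WT was 144 bp in Treg and −224 bp in Tconv. With equal numbers and without KO Treg replicate 2 (21269 peaks each), element 6 stayed at 5 Treg and 0 Tconv libraries, Treg minus Tconv was 597 bp (exact permutation p = 0.035) and KO minus WT in Tconv was −245 bp. When a peak had to cover 50% of an element, the 473 and 426 bp peaks of element 6 in KO Treg fell short of it. Its difference was then 3 libraries, 0 elements were Treg-enriched and 1, element 6, counted as lost in KO Treg. Both ends of element 6 were set by WT Treg peaks, and the shares of all regions called at this setting were not worked out. The difference at element 2 was then −1 library, and KO minus WT in Tconv was −121 bp. At a difference of at least 4 libraries 2 elements (3 and 6) were Treg-enriched and 1 (element 9) Tconv-enriched. The share of all regions called at that margin over all libraries was not worked out, so these counts have no genome rate beside them. In the window from 7.14 to 7.18 Mb, which leaves out elements 8 and 9, Treg minus Tconv was 790 bp (exact permutation p = 0.045) and 2.17 elements (exact permutation p = 0.035). Where no cause is stated, it was not tested.

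Leaving out 1 library at a time, Treg minus Tconv ranged from 225 bp (without WT Treg replicate 2) to 816 bp (without KO Treg replicate 2), and KO minus WT in Tconv from −214 bp (without WT Tconv replicate 1) to 157 bp (without WT Tconv replicate 3). It was −71.8 bp without KO Tconv replicate 2. KO minus WT in Treg ranged from −1751 to −797 bp. The Treg minus Tconv difference in elements ranged from 0.667 (without WT Treg replicate 2) to 1.87 (without KO Treg replicate 2). Within KO the covered difference was 326 bp without KO Treg replicate 2, against −172 bp with it, an alternative chosen after seeing the data. Treg-enriched elements numbered 1 to 2, Tconv-enriched elements 0 to 1, and elements lost in KO Treg 0 to 2 (elements 2 and 8, without KO Treg replicate 1). The lower call of 4 libraries used there adds element 3 or 9. Shares of all regions at that lower call were worked out only without KO Treg replicate 2 (6.20% Treg-enriched, 6.40% Tconv-enriched). For the lost calls with a library left out they were not worked out.

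Replicate numbers are shared by the groups, but same-numbered Treg and Tconv libraries did not deviate together (correlations of −0.0283 to 0.0608 across regions). With the replicate block, pairing Treg and Tconv libraries of one number, the difference was 487.5 bp (exact sign-flip p = 0.312) and 1.17 elements (exact sign-flip p = 0.312). Both stayed above 0.05, as without the block, which was not run for the calls of single elements.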
